A study of Canis lupus familiaris with 77 samples.

Results

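The miRNAs cfa-miR-208a, cfa-miR-208b and cfa-miR-499 are 3 of the 650 miRNAs with at least 1 read in the beagle dog tissue atlas, and they were chosen by name because each comes from a gene that encodes a myosin heavy chain. Small RNA was sequenced from 16 tissues of 5 untreated male beagle dogs, aged 10 months and perfused with buffered saline before the organs were taken. Values were analysed for 5 samples in each of 14 tissues, 4 in colon and 2 in sciatic nerve. The skeletal muscle samples were quadriceps, the part of the heart that was sampled is not given in the sources used here, and the labels carry no number that ties a sample to a dog. Samples of different tissues therefore share dogs, and the tests below treat them as independent.

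Myosin heavy chains are the motor proteins of the thick filament, and the choice of chain sets how fast a muscle fibre contracts. MYH6 encodes the fast alpha chain of the heart, which prevails in the adult atria of large mammals. MYH7 encodes the slow beta chain of the ventricle and of slow skeletal fibres, and MYH7B is a related gene transcribed in both kinds of muscle. Mammals carry miR-208a in an intron of MYH6, miR-208b in an intron of MYH7 and miR-499 in an intron of MYH7B, so that a miRNA and its host transcript share a promoter. In the RefSeq annotation of the UU_Cfam_GSD_1.0 dog assembly, MIR208A lies within MYH6, MIR208B within MYH7 and MIR499 within MYH7B, and MYH6 and MYH7 are neighbouring protein-coding genes. The mature miR-208a and miR-208b are close in sequence and share their seed, the stretch that pairs with target transcripts. All 3 belong to the myomiRs, the miRNAs of striated muscle that also include miR-1, miR-133a, miR-133b and miR-206.

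The libraries held 157871 to 7896424 reads on miRNAs, with a median of 1364823, and values are in RPM, the deposited reads of a miRNA scaled to the reads on all miRNAs of the sample. A floor of 3 reads corresponded to 0.380 to 19.0 RPM, and intervals and floors cover counting error only. Label checks held for the heart, where miR-1 and miR-133a exceeded every sample outside striated muscle in 5 of 5 samples. Skeletal muscle replicate 4, with 220445 reads, went against its label. It held 9.07 RPM of miR-1, 676 RPM of miR-133a and 4.54 RPM of miR-206, against at least 1390.2, 36539 and 258 RPM in the other 4 skeletal muscle samples. Its mean Spearman correlation with the other skeletal muscle samples was 0.791, the lowest of the 5, though replicate 5 was near it at 0.804. With sciatic nerve it was 0.849. Skeletal muscle replicates 1, 2 and 3 also correlated more with sciatic nerve or heart than with their own tissue. The ratios of medians of miR-499 and miR-208b and the edgeR result of miR-499 are given with and without replicate 4. Other skeletal muscle results include it unless stated. In this bulk RNA, fewer muscle cells and less miRNA per muscle cell cannot be told apart.

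The 3 miRNAs were at their highest in the heart. By median RPM, miR-208b ranked 25 and miR-499 ranked 26 among the 650 miRNAs of the heart, beside miR-1 at 23, while miR-208a ranked 157. In skeletal muscle, miR-208b ranked 51 and miR-499 ranked 74, and miR-208a had no read. Heart and skeletal muscle were first and second in the order of tissues for miR-208b and miR-499. For miR-208a, only the heart had a median above 0.

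**Figure D1:**
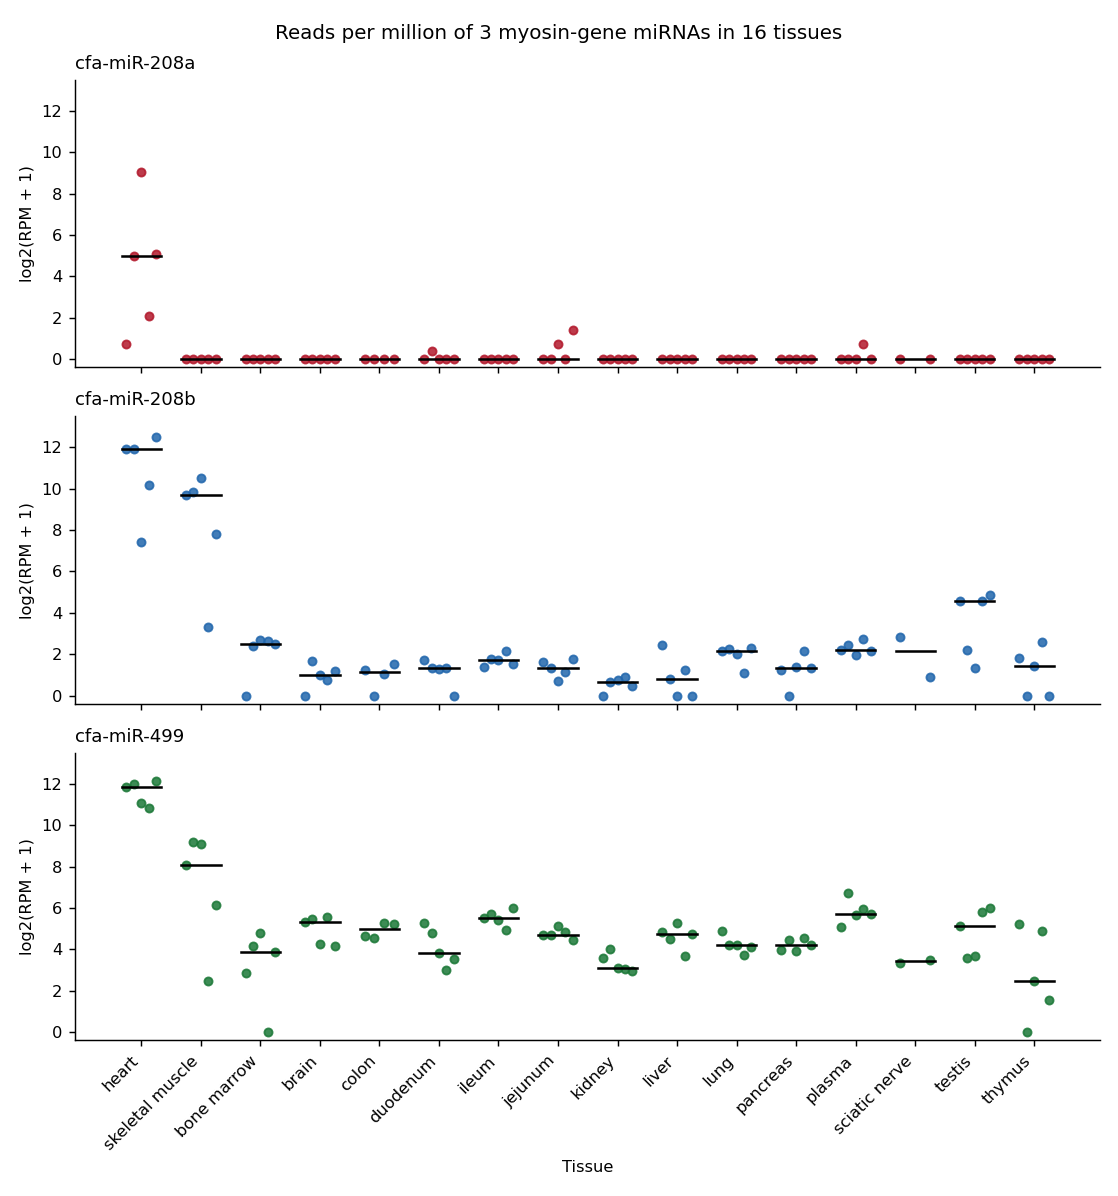
Levels of cfa-miR-208a, cfa-miR-208b and cfa-miR-499 as log2(RPM + 1) on the vertical axis against tissue, 1 point per sample (5 per tissue, 4 in colon, 2 in sciatic nerve), with a bar at the tissue median. Heart medians were 30.9, 3829 and 3752 RPM, while miR-499 had reads in 64 of the 66 samples outside heart and skeletal muscle and miR-208a in 4.

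The miRNA of MYH7B, miR-499, was the steadiest of the set in the heart. Heart replicates 1 to 5 held 3752, 4139, 2161, 1806 and 4465 RPM of miR-499. Every heart was thus within a 2.47-fold range, with a mean of 3265 ± 1203 RPM (SD, n = 5). Skeletal muscle replicates 1 to 5 held 272, 593, 553, 4.54 and 69.7 RPM of miR-499. The highest muscle sample stood below the lowest heart, and the ratio of the 2 medians was 13.8, or 9.09 without skeletal muscle replicate 4. By sequencing, the study lists miR-499 as the single highly enriched miRNA of the heart, while its quantitative PCR did not tell the tissues apart by miR-499.

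The miRNA of the slow myosin gene MYH7, miR-208b, had a heart median close to that of miR-499 and a wider spread. Heart replicates 1 to 5 held 3829, 3901, 171, 1165 and 5832 RPM of miR-208b. The other hearts were all at 1165 RPM or more and replicate 3 was far below them, and the mean was 2980 ± 2285 RPM (SD, n = 5). Skeletal muscle replicates 1 to 5 held 835, 909.7, 1459, 9.07 and 222 RPM of miR-208b. The groups overlapped, since heart replicate 3 was below 4 of the 5 skeletal muscle samples and heart replicate 4 was below skeletal muscle replicate 3. The ratio of the medians was 4.58, or 4.39 without skeletal muscle replicate 4.

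The miRNA of MYH6, miR-208a, was scarce in 4 hearts and abundant in 1. Heart replicates 1 to 5 held 0.633, 30.9, 522, 3.26 and 32.3 RPM, from 5, 13, 839, 2 and 45 reads. Replicate 3 was 16.2 times the next highest heart, and the highest and lowest hearts differed 825-fold. The 5 skeletal muscle samples held 0 reads of miR-208a among 4092987, which allows up to 0.733 RPM over the group. Against that limit the heart median was at least 42.2-fold higher, or at least 23.3-fold higher without heart replicate 3. From the pooled reads of the hearts without replicate 3 the bound was 8.59-fold, and heart replicate 1 alone, at 0.633 RPM, was below the limit.

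**Figure D2:**
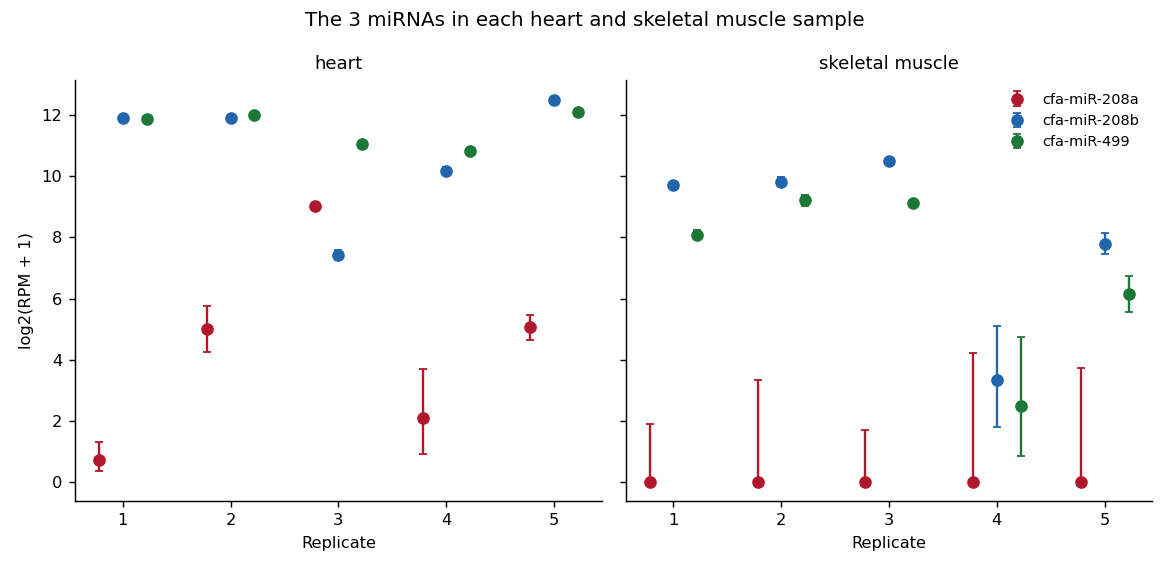
Values of cfa-miR-208a (red), cfa-miR-208b (blue) and cfa-miR-499 (green) as log2(RPM + 1) in each heart (left) and skeletal muscle (right) replicate, with 95% Wilson counting intervals as bars where they exceed the point. In heart replicate 3, miR-208a at 522 RPM lay above miR-208b at 171 RPM, the reverse of the other 4 hearts.

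Heart replicate 3 was thus high in the MYH6 miRNA and low in the MYH7 miRNA. Among all 650 miRNAs, miR-208a was the only one at 100 RPM or more that was over 5 times the level of each of the other 4 hearts in this sample. Likewise, miR-208b was the only miRNA more than 5 times lower in this sample than in each of the other 4 hearts, among miRNAs at 100 RPM or more in all 4. The mean Spearman correlation of this sample with the other hearts was 0.917, against 0.896 to 0.916 for the others. Its miR-133a, at 84760.1 RPM, was within their range and its miR-1, at 3164 RPM, was the lowest of the 5. Its smooth muscle, erythroid and endothelial marker sums, at 106355, 120843 and 30853 RPM, were within the range of the other 4 hearts. Markers of 3 other cell types were higher in it than in each of the other 4 hearts. The leukocyte list (miR-142, miR-150 and miR-223) summed to 844 RPM against 99.5 to 484 RPM, the fibroblast list (miR-199 and miR-214) to 4906 RPM against 1062 to 3028 RPM, and the neural list (miR-9, miR-124 and miR-338) to 491 RPM against 79.9 to 272 RPM. The part of these cells in its miR-208a and miR-208b was not tested. The labels give no region for any heart sample, and what set this sample apart was not tested.

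The make-up of the 3 miRNAs within a sample does not depend on the scaling of the library. In heart replicate 3, miR-208a supplied 18.3% of the reads of the 3 miRNAs (95% Wilson interval 17.2 to 19.4%) and miR-499 75.7%, with miR-208b as the rest. In the other 4 hearts miR-208a supplied at most 0.383%. There were 305 reads of miR-208a per 100 reads of miR-208b in replicate 3, and 0.0165, 0.793, 0.280 and 0.553 in replicates 1, 2, 4 and 5. The read alignment allowed no mismatch, and the heart with the most reads of miR-208b, replicate 1 with 30238, had 5 reads of miR-208a. Whether reads of one were counted as the other was not tested. In skeletal muscle, 0 reads of miR-208a beside 4139 of miR-208b allow up to 0.0725 per 100.

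Skeletal muscle had more miR-208b than miR-499, and most hearts had about as much of one as of the other. Hearts 1 to 5 held 1.02, 0.943, 0.0792, 0.645 and 1.31 reads of miR-208b per read of miR-499. Skeletal muscle replicates 1 to 5 held 3.07, 1.53, 2.64, 2 and 3.18, the value of replicate 4 resting on 2 reads against 1. Every skeletal muscle sample was above every heart. The mean log2 ratio, with 0.5 added to each count, was -0.79 ± 1.64 in the heart and 1.20 ± 0.49 in skeletal muscle (SD, n = 5 each). The difference of -1.99 had p = 0.00794 in a two-sided exact permutation test, the smallest that 5 samples against 5 can give, and 0.0238 adjusted over the 3 ratios. Without heart replicate 3 and skeletal muscle replicate 4, a choice made after seeing the data, the difference was -1.40 with an adjusted exact permutation p of 0.0857. The groups still did not overlap, and the unadjusted p was the smallest that 4 samples against 4 can give.

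The ratios of miR-208a to the others did not pass the test. In skeletal muscle miR-208a was at 0, so that the 0.5 added to each count and the depth set those ratios. The difference in mean log2 ratio was 1.84 for miR-208a to miR-208b (adjusted exact permutation p = 0.810) and -0.16 for miR-208a to miR-499 (adjusted exact permutation p = 0.960). Heart replicate 3 had the highest ratio of miR-208a to miR-208b of the 10 samples, and without it that difference was -0.24.

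**Figure D3:**
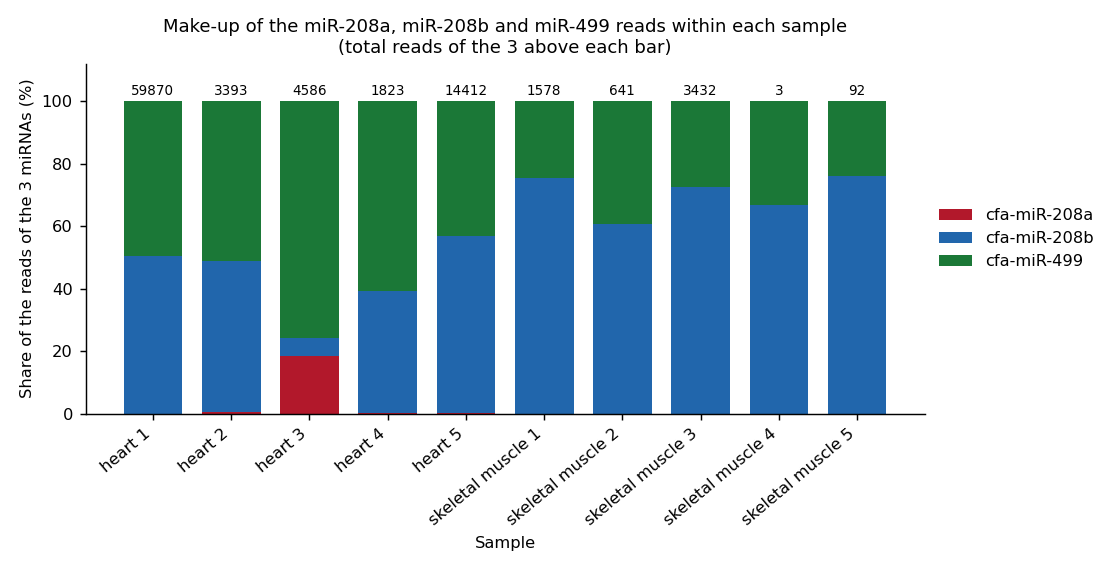
Stacked bars of the share (%) of cfa-miR-208a, cfa-miR-208b and cfa-miR-499 in the reads of the 3 miRNAs in each heart and skeletal muscle sample, with the number of those reads above each bar. The miR-208a share is 18.3% in heart replicate 3 and at most 0.383% in the other hearts, and miR-208b makes up 72.0% of the pooled skeletal muscle reads against 48.8% in heart.

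Tissue enrichment was tested by the criteria stated in the study. These are the ratio of the mean in a tissue to the mean of all other samples and a rank-sum test, here an exact one. A fold above 5 and an adjusted p under 0.05 called 13 of 650 miRNAs (2%) in the heart, and the 3 myosin-gene miRNAs were among them. The fold was 2607 for miR-208a (adjusted exact rank-sum p = 4.93e-05), 58.2 for miR-208b (0.000111) and 72.0 for miR-499 (2.35e-05). The miR-208a fold was carried by heart replicate 3, and without that sample it was 371 (adjusted exact rank-sum p = 0.000535). All 5 hearts exceeded every other sample for 0.462% of the miRNAs, and miR-499 was one of these, with a median 6.33 times the highest other sample, skeletal muscle replicate 2. For miR-208a the heart median was 19.2 times the highest other sample, jejunum replicate 5, which held 1.61 RPM from 2 reads. Heart replicate 1, at 0.633 RPM, was below that jejunum sample. A median more than 5 times the highest other sample was reached by 0.462% of the miRNAs. These were miR-499, miR-208a and rno-miR-208b-3p, a row annotated from rat (19.4 times, from 37 reads in the hearts). The study lists only miR-499 as highly enriched in the heart, and the source of this difference was not tested.

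In skeletal muscle the same criteria called 9 miRNAs (1.38%), and none of the 3 was called. This differs from the study, which in its results lists a miR-208, without a letter, as tissue enriched in both heart and skeletal muscle. In its serum panel the study names miR-208b for heart and muscle. The set of sciatic nerve samples in the study was not the same as here, and the source of the difference was not tested. The fold of miR-208b was 3.23 with the hearts in the reference (adjusted exact rank-sum p = 0.00749) and 224 without them (0.000175). The fold of miR-499 was 1.17 (adjusted exact rank-sum p = 0.210), and without the hearts it was 11.4 with an adjusted p of 0.0943, so that it was not called in either case. A median more than 5 times the highest other sample was reached in skeletal muscle by 0.154% of the miRNAs, miR-206 alone, and all 5 samples exceeded every other sample for none. In the 14 other tissues the criteria called 3.89% of the pairs of tissue and miRNA. None of the 42 pairs with a myosin-gene miRNA was called. The hearts in the reference raised its mean, and the highest fold of the 42 pairs was 0.221, for miR-499 in plasma. The fold criterion could thus hardly be met there, and the lack of calls says little about these tissues. By the exact rank-sum test 5 pairs had an unadjusted p under 0.05, all with a mean below that of the other samples. A mean below the reference was not always a low rank. For miR-499, the lowest plasma sample (32.8 RPM) and the lowest ileum sample (29.5 RPM) were above 22.7 RPM, the median outside heart and skeletal muscle.

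Among the other striated muscle miRNAs, 5 of 7 were called in the heart and 6 of 7 in skeletal muscle, against 2% and 1.38% of all 650 miRNAs. The skeletal muscle calls included rno-miR-133b-5p, with 6 reads in 2 samples and a median of 0 RPM, and hsa-miR-1-5p, with 28 reads. The other arm of miR-133a, hsa-miR-133a-5p, was not called there (adjusted exact rank-sum p = 0.0782), though the study lists miR-133a-5p as enriched in both tissues. miR-1, which is expressed in all striated muscle, was 34.6-fold above the other samples in the heart (adjusted exact rank-sum p = 2.35e-05). miR-206, the miRNA of skeletal muscle, was 334-fold above them in skeletal muscle (0.00102), and its median in the heart was 0 RPM. The median log2 fold of the 7 was 3.66 in the heart and 3.50 in skeletal muscle.

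Heart and skeletal muscle were then compared directly with edgeR's quasi-likelihood test on the counts, for 209 miRNAs. The test called 10 miRNAs higher in heart (4.78%) and 20 lower (9.57%) at an adjusted p under 0.05. The split depended on the scaling, with 17 higher and 8 lower under DESeq2 size factors and 15 higher and 4 lower by library size. The median log2 difference of all miRNAs tested was -0.19, against 0.21 and 0.38 under those scalings.

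miR-499 was higher in the heart by 2.82 on the log2 scale (SE 0.80, edgeR adjusted p = 0.0352). Under the other 2 scalings its difference was 3.16 and 3.44. Its samples did not overlap between the tissues, which was so, with the heart above, for 10.5% of the miRNAs tested. The call did not survive leaving out heart replicate 1, 2 or 5 or skeletal muscle replicate 1, 3 or 5, with edgeR adjusted p of 0.0609 to 0.107. Without skeletal muscle replicate 4 the adjusted p was 0.00377 and the difference 2.59.

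miR-208b had a log2 difference of 1.55 (SE 0.97), which missed the threshold (edgeR adjusted p = 0.317). Leaving out heart replicate 3 and skeletal muscle replicate 4 together was chosen after seeing the data, and removed the lowest miR-208b value of each tissue. The difference was then again 1.55, with an SE of 0.37 and an edgeR adjusted p of 0.0153. After such a choice the smaller SE and p do not count as a test. The filter on low counts removed miR-208a from the test. A two-sided exact permutation test of its log2(RPM + 1) gave a difference of 4.38 and p = 0.00794, the smallest that 5 samples against 5 can give, or 0.105 adjusted over 514 miRNAs. In the alternative fits that kept it, miR-208a was called higher in heart, with an edgeR adjusted p of 0.00343 without the filter and 0.000725 in a fit over all tissues, and a DESeq2 adjusted p of 0.00212. Their fitted folds give no bound, since skeletal muscle was at 0.

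Of the striated muscle list, 4 of 7 members were tested between the 2 tissues and 0 were called by edgeR. The differences were -0.59 for miR-133a (adjusted p = 0.647), -1.37 for miR-133b (0.269), 0.55 for miR-1 (0.670) and -0.64 for hsa-miR-133a-5p (0.546), the last being the other arm of the miR-133a hairpin. Per 100 reads of miR-133a, hearts held 2.55 to 5.98 reads of miR-499 and skeletal muscle 0.191 to 0.671. For miR-208b these values were 3.14 to 6.10 in 4 hearts, 0.202 in heart replicate 3 and 0.607 to 1.48 in skeletal muscle. Skeletal muscle replicate 4 lay within the skeletal muscle range for miR-208b, at 1.34, and at its top for miR-499, at 0.671, from 2 reads and 1 read.

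Markers of other cell types were compared between the same 2 tissues, and 1 miRNA of the neural list was the only one called. The smooth muscle list (miR-143 and miR-145) summed to 97931 to 136305 RPM in the hearts and 25158 to 44202 RPM in skeletal muscle, and 0 of its 2 members was called by edgeR. The neural list (miR-9, miR-124 and miR-338) summed to 79.9 to 491 RPM in the hearts and 15.8 to 117 RPM in skeletal muscle, and 1 of 2 tested members was called higher in heart. The erythroid list (miR-144, miR-451 and miR-486) spanned 99921 to 274986 RPM and 48482 to 171907 RPM, with 0 of 3 called. The leukocyte, endothelial and fibroblast lists overlapped between the tissues and 0 of their members was called. The part of these cells in the levels of the myosin-gene miRNAs was not tested.

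The table also held other rows of the same hairpins, annotated from rat and human sequences. Since both the 3p and the 5p arm of miR-208b have a rat row, cfa-miR-208b shares its arm with a rat row. The 3 rows were hsa-miR-499a-3p, rno-miR-208b-3p and rno-miR-208b-5p, and all 3 were called in the heart and 0 in skeletal muscle. The passenger arm hsa-miR-499a-3p had 13.7, 33.3, 8.09, 6.53 and 35.1 RPM in heart replicates 1 to 5. This was 188 reads against 42176 of cfa-miR-499, so that the 3p arm was 0.444% of both arms in the heart (95% Wilson interval 0.385 to 0.512%). In skeletal muscle it was 26 reads against 1607, or 1.59% (1.09 to 2.32%), with 0 reads in replicates 4 and 5.

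The 2 rows of miR-208b annotated from rat were at 0 in heart replicate 3, the heart lowest in cfa-miR-208b. rno-miR-208b-5p had 25, 0, 0, 1 and 3 reads in heart replicates 1 to 5 and 5 reads in skeletal muscle. rno-miR-208b-3p had 25, 1, 0, 2 and 9 reads in the hearts, 1 read in ileum and 0 elsewhere. These counts are low, and heart replicate 2, at 420401 reads, also had 0 reads of rno-miR-208b-5p.

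Outside heart and skeletal muscle, the 3 miRNAs separated by how widely they were found. Over 66 samples and 110536646 reads, miR-208a had 5 reads in 4 samples, none with more than 2 reads. miR-208b had 218 reads in 56 samples, of which 25 had more than 3 reads, and its median was 1.64 RPM. miR-499 had 2843 reads in 64 samples, 60 of them with more than 3 reads, and its median was 22.7 RPM. The MYH7B miRNA was thus measurable in nearly every tissue, the MYH7 miRNA at a few reads in most samples, and the MYH6 miRNA at 1 or 2 reads in 4 of them.

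Plasma was the third tissue for miR-499. Plasma replicates 1 to 5 held 32.8, 104, 50.4, 61.3 and 51.2 RPM of miR-499, from 9, 184, 70, 96 and 74 reads. The next medians were 45.4 RPM in ileum, 39.4 in brain and 33.9 in testis, and the lowest was 4.56 RPM in thymus. Of the 15 pairs of neighbours in this order, only heart and skeletal muscle did not overlap. The exact permutation test gave p = 0.00794 for that pair and 0.119 adjusted over the 15, and 0.421 for skeletal muscle and plasma, with adjusted values of at least 0.119 for every pair.

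Beside its miR-499, plasma had little of the other muscle miRNAs. miR-1 had 0 reads in all 5 plasma samples, and there were 236 reads of miR-133a against 433 of miR-499. Per 100 reads of miR-133a, plasma held 109 to 526 reads of miR-499, against at most 5.98 in heart and 0.671 in skeletal muscle. All samples of pancreas (36.3 to 236), liver (12.9 to 156), brain (14.9 to 32.0) and lung (8.67 to 20.5) were also above every heart and skeletal muscle sample. miR-208b reached 7.35 to 22.9 reads per 100 of miR-133a in plasma, from 27 reads in all. The erythroid markers miR-144, miR-451 and miR-486 summed to 543769 to 815725 RPM in plasma, and their part in the plasma level of miR-499 was not tested. The 3p arm was 5.46% of the miR-499 arms in plasma (95% Wilson interval 3.72 to 7.93%, 25 of 458 reads) and 0 of 314 reads in brain, which allows a share of up to 0.955%.

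**Figure D4:**
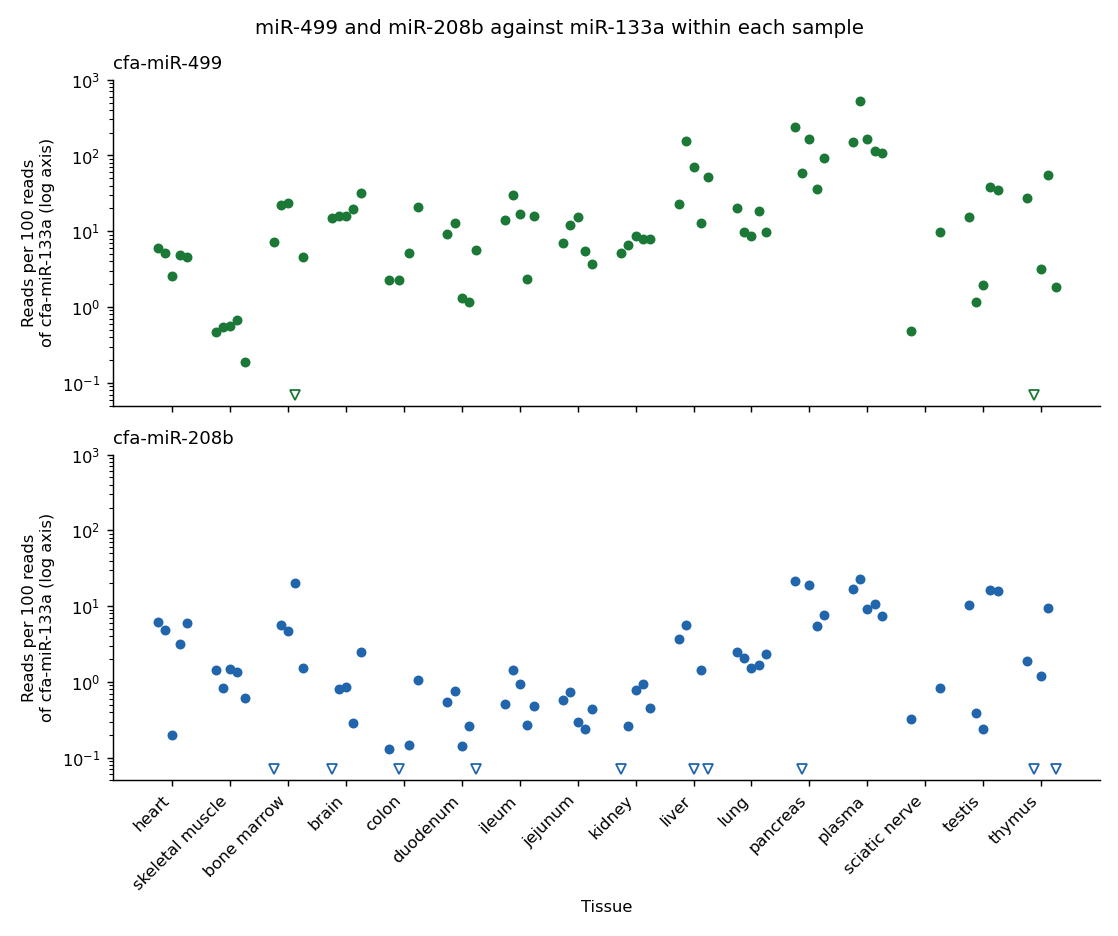
Reads of cfa-miR-499 (top) and cfa-miR-208b (bottom) per 100 reads of cfa-miR-133a in each sample, on a log axis, by tissue, with open triangles for samples with 0 reads of the miRNA. The miR-499 values were 2.55 to 5.98 in heart, 0.191 to 0.671 in skeletal muscle and 109 to 526 in plasma.

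Testis was the third tissue for miR-208b. Testis replicates 1 to 5 held 22.6, 3.65, 1.48, 22.8 and 27.9 RPM of miR-208b, but from only 6, 1, 3, 5 and 8 reads. Testis overlapped with the next tissue in the order, bone marrow (exact permutation p = 0.119, 0.833 adjusted over the 15 pairs of neighbours). No pair of neighbours was free of overlap for miR-208b, and the lowest adjusted exact permutation p was 0.476, for skeletal muscle and testis. Replicates 2 and 3 were also low in miR-202, a miRNA of the gonads chosen here after its values were seen, at 241 and 0.493 RPM against 3340.3 to 5345 RPM in the other 3. miR-499 was likewise lowest in replicates 2 and 3 of testis, at 10.9 and 11.8 RPM against 33.9 to 62.7 RPM.

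Of the 2 sciatic nerve samples, replicate 1 carried muscle miRNAs. It held 1917 RPM of miR-133a and 30.9 RPM of miR-206, against 105 and 0 RPM in replicate 2. Its miR-208b was 6.18 RPM against 0.859 RPM, from 6 reads and 1 read. miR-499 was at 9.27 and 10.3 RPM, from 9 and 12 reads. Per 100 reads of miR-133a this was 0.483 and 9.84 reads of miR-499, the first within the skeletal muscle range of 0.191 to 0.671.

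Across the 76 samples, the patterns most like those of the 3 miRNAs belonged to other muscle miRNAs. Pearson's r of log2(RPM + 1) with miR-208b was 0.874 for hsa-miR-1-5p, 0.830 for miR-499, 0.815 for hsa-miR-133a-5p, 0.813 for miR-133a and 0.809 for miR-1, among 524 miRNAs compared. For miR-499 the closest was miR-208b at 0.830, followed by hsa-miR-1-5p and hsa-miR-133a-5p at 0.787 each, its own 3p arm at 0.755 and miR-1 at 0.730. For miR-208a, with reads in 9 samples, the closest were hsa-miR-1-5p at 0.626 and miR-499 at 0.624, then hsa-miR-499a-3p at 0.556, miR-1 at 0.544 and hsa-miR-133a-5p at 0.532, and its r with miR-208b was 0.530. These correlations are descriptions over samples that share a tissue, a library and its depth, and the highest values of miR-208b and miR-499 are all in heart and skeletal muscle samples.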

How the data were processed

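Small RNA libraries were sequenced by the authors, aligned to CanFam3.1 with OSA version 4 without mismatches, and counted where a read covered at least 70% of a dog miRNA locus or of one placed by rat or human sequence. Reads at more than 10 locations were dropped. The deposited table gives the raw count and the RPM per sample, and RPM recomputed from the deposited counts differed by at most a relative 2.89e-09. Of 77 labelled samples, 76 had values. In the table, 1 sample name matched no label and was not used, and the authors' maximum column was left out. The sciatic nerve samples are described both as single samples and as a split pool.

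Absent rows were taken as 0. A tissue was compared with all other samples by the study's criteria without an expression filter, a mean ratio above 5 and an exact rank-sum p under 0.05, adjusted by Benjamini-Hochberg over 650 miRNAs. Counts were compared with edgeR 4.0.16 (quasi-likelihood, TMM, filterByExpr, SE derived from the F statistic) in R 4.3.3, with DESeq2 1.42.0 as an alternative. Ratios and neighbouring tissues were compared by exact permutation tests (scipy 1.17.1). The scripts were tested on simulated data. The miRNAs named are the 3, the other rows of their hairpins and the striated muscle miRNAs. For each of the 3, the 5 with the highest Pearson correlation are also named, among miRNAs with reads in at least 10 samples. The members, lists and tests were chosen with earlier results of these data known. Replicate numbers follow accession order, and p-values measure the spread between the samples of a group.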

Additional observations from a re-analysis of the deposited data

Results flagged for a closer look

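In heart replicate 3, 2 values stood apart from the other 4 hearts by Dixon's test, among 36 groups of values examined, where chance alone marks about 1 group in 20. miR-208a was at 522 RPM, against 0.633 to 32.3 RPM in the other hearts. The log2 ratio of miR-208b to miR-499 was -3.66, against -0.63 to 0.39 in the others. Both values come from the same library, and the cause was not tested.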

How the results depend on the processing

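No paired analysis was possible because the labels carry no dog number, although the tissues came from the same 5 dogs. Of 215 alternative values, 183 kept their direction and side of the threshold. Heart enrichment of miR-208b and miR-499 did so under all 14 alternatives, with folds of 44.2 to 972 and 65.3 to 130.3, and that of miR-208a under 13, with 20.1 to 3255 (the lowest on the log2(RPM + 1) scale). The 13 heart calls became 7 when only miRNAs above 100 RPM in a tissue were tested. Skeletal muscle had 9 calls, 5 with the median in place of the mean and 4 to 10 leaving out 1 sample. miR-208b passed there with a fold of 224 without heart in the reference and a fold of 66.3 taken from means of log2(RPM + 1). The skeletal muscle fold of miR-499 was 0.884 to 1.46 leaving out 1 sample and 1.64 without both samples below, turning below 1 without skeletal muscle replicate 2 (0.884) or 3 (0.924).

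For heart against skeletal muscle, 30 calls became 19 by library size, 73 with DESeq2, 61 in a fit over all tissues, 18 to 43 leaving out 1 sample (18 without heart replicate 2, 19 without heart replicate 5) and 0 with the exact permutation test, which gave 4.58 for miR-499 (adjusted p = 0.105). Leaving out 1 sample, miR-499 ranged from 2.55 to 3.58 and miR-208b from 1.33 to 1.98. miR-208b passed in the fit over all tissues, at 1.78 (edgeR adjusted p = 0.0365), and, chosen after seeing the data, at 1.55 without heart replicate 3 and skeletal muscle replicate 4, where the miR-208b to miR-499 ratio was -1.40 with an adjusted exact permutation p of 0.0857. Leaving out 1 sample, that ratio ranged from -2.29 to -1.28, miR-208a to miR-208b from -0.24 to 3.38 and miR-208a to miR-499 from -1.51 to 1.27, turning positive without heart replicate 1 (1.07) or 4 (0.17) or skeletal muscle replicate 4 (1.27) or 5 (0.30). With more than 3 reads required, miR-208a was found in 0 and miR-208b in 25 samples outside both muscles. The cause of these changes was not tested. Depth limits miR-208a, whose 3-read floor in skeletal muscle libraries was 1.76 to 13.6 RPM.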
